A study of Mus musculus with 36 samples.

Results

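Abasic (AP) sites, DNA positions that have lost their base, were profiled by SSiNGLe-AP in peripheral blood mononuclear cells (PBMCs) of aged mice, and 2 of the 12 AP libraries analysed here are PBMC libraries. They hold 893588 and 858378 AP positions on the 19 autosomes, 1751966 in all, and were chosen by tissue alone. The other 10 libraries come from bone marrow, brain, heart, liver and sperm, 2 of each, with 452686 to 946961 autosomal positions. All 12 were made from male C57BL/6J mice aged 24 months, 2 animals in all, so every comparison is between tissues at 1 age and none is between ages. Mononuclear cells were separated from blood on Ficoll, red cells were lysed in the bone marrow, and motile sperm came from the epididymal tail and had their DNA purified with another kit. No genetic change or treatment is stated for these animals.

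An AP site forms when the bond between a base and its sugar breaks, either by itself, as in the loss of purines, or when a DNA glycosylase cuts out a damaged base such as uracil. Base excision repair then nicks the strand beside the site, fills the gap and seals it. PBMCs are T cells, B cells, NK cells and monocytes, most of them resting, and the lymphocytes among them carry rearranged antigen receptor genes. The profile is of DNA: it does not measure expression, and no marker gene can be used to check which cells a library holds.

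The PBMC AP landscape was compared with that of the other tissues in terms of the bases at AP positions, the placement of the positions relative to genes, their density per gene and per 100 kb window, and the exact nucleotides found in both PBMC libraries. Density is given as LPKM-AP, the AP positions per kb of a gene span per 1e6 autosomal positions of the library, with each position counted once.

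The bases at AP positions were read from 31365 RefSeq promoters of GRCm38.p6 (250 bases before and 50 after a transcription start) on 18 of the 19 autosomes, which held 6046 AP positions in PBMC 1 and 6132 in PBMC 2. The AP position was adenine in 38.7% and 38.9% of them and guanine in 37.2% and 37.1%. Cytosine made up 15.5% in both libraries and thymine 8.60% and 8.55%. In the promoters themselves, counted on both strands, adenine and thymine each make up 23.0% and guanine and cytosine 27.0%, so both purines stood above and both pyrimidines below the composition of the sequence.

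The neighbouring bases departed from that composition too. In the position 2 nucleotides to the 5′ side, cytosine was found in 53.8% and 54.3% of the AP positions of PBMC 1 and PBMC 2, and guanine in 36.5% and 34.8%. Adenine fell to 3.36% and 4.19% there. Counting from the 5′ side, the trinucleotide that ends at the AP position was CCA in 12.1% and 11.8%, against 2.03% of all promoter trinucleotides, the highest ratio to background (5.87) among the 64 trinucleotides. CGA followed, with 3.14% and 3.001% against 0.592%. The trinucleotides AAG, AAT and TAA, which made up 1.82%, 1.21% and 1.08% of the promoters, were found at none of the PBMC positions. The other tissues had the same context: CCA made up 9.68% to 12.9% of their AP positions, with a median of 12.3%.

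**Figure D1:**
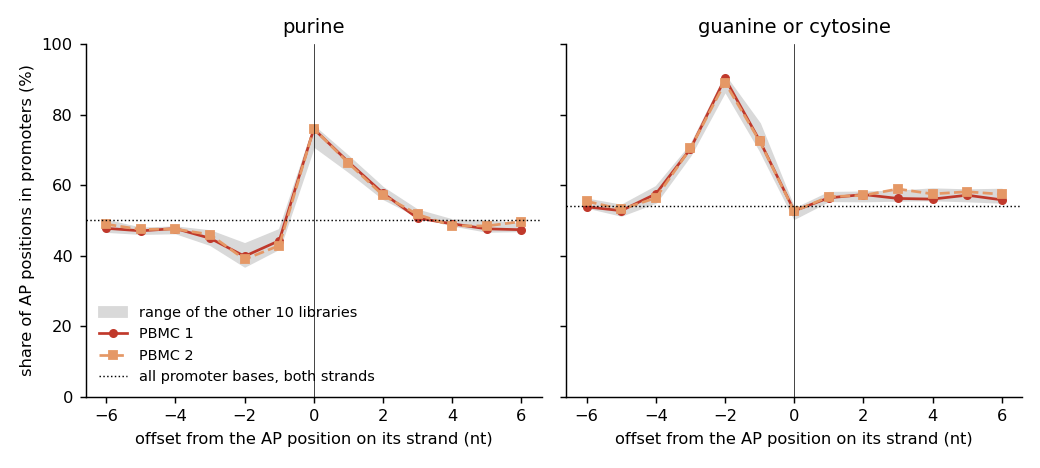
Share of promoter AP positions (y axis, percent) with a purine (left) or with guanine or cytosine (right) at each offset from the AP position on its own strand (x axis, nucleotides; negative is the 5′ side). Points are PBMC 1 and PBMC 2, the band is the range of the other 10 libraries and the dotted line the composition of all promoters; the purine share peaks at offset 0 and the guanine or cytosine share at offset -2.

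The purine share at the AP position was 75.9% in PBMC 1 and 76.0% in PBMC 2. It ran from 71.1% in sperm 2 to 76.7% in heart 1 among the other 10 libraries, so both PBMC values lay near the upper end of the other tissues without passing it. The difference of the means, 75.9% ± 0.054 (SD, n = 2) against 74.1% ± 1.98 (SD, n = 10), gave p = 0.273 in an exact two-sided permutation test over the 66 ways to pick 2 of 12 libraries, whose smallest possible p is 0.0152. Guanine at the AP position was the one of the 4 bases whose share did not overlap, with 37.2% and 37.1% in PBMCs against 34.4% to 36.7% elsewhere. Its exact permutation test gave p = 0.0606, and 0.955 after Benjamini-Hochberg adjustment over the 28 base shares tested at offsets -3 to 3. The unadjusted p did not pass 0.05. With a smallest possible p of 0.0152, a single share could not pass the adjustment over 28, so the adjusted value decides nothing on guanine.

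Sequence around PBMC AP nucleotides can be shown where both PBMC libraries marked the same nucleotide in a promoter, which happened 15 times. A purine was marked in 13 of the 15, and cytosine or guanine lay 2 nucleotides to the 5′ side in all 15. The sequences below are shown because they let the context be read directly. They are the cases that lie wholly upstream of the transcription start (RefSeq, GRCm38.p6), written 5′ to 3′ on the strand of the AP site, with the AP nucleotide in capitals.
Trappc12, minus strand, chr12:28750618-28750650: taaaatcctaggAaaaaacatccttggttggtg
Ajuba, plus strand, chr14:54577766-54577806: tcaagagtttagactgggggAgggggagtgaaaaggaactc
Gm41821, minus strand, chr19:23299815-23299855: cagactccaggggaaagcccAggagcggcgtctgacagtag
Nat10, minus strand, chr2:103761311-103761351: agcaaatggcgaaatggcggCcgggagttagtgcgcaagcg
Gm36323, plus strand, chr3:91630826-91630866: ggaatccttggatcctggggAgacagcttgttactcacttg
Gm33496, plus strand, chr6:126599204-126599244: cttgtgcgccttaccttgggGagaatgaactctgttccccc
Klk15, plus strand, chr7:43931465-43931505: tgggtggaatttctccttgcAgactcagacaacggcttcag
Ces2a, plus strand, chr8:104733953-104733993: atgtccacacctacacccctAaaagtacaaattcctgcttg
Gm33862, plus strand, chr11:3136826-3136861: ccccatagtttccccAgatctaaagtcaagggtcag
Gm33862, plus strand, chr11:3136945-3136985: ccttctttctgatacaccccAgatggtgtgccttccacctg

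The first 8 of these nucleotides were found in none of the other 10 libraries, as were 87.8% of all nucleotides shared by both PBMC libraries. Those before Gm33862, a long noncoding RNA gene inside the Sfi1 region described further on, recurred in 5 and 4 of them. Each nucleotide had a deposited count of 1 in both PBMC libraries. Nat10 encodes an RNA acetyltransferase, Trappc12 a subunit of a vesicle tethering complex, Ajuba a LIM domain adaptor protein, Klk15 a kallikrein protease and Ces2a a carboxylesterase.

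AP positions in the same PBMC library were also close to each other more often at some distances than at others. On the same strand, 5613 neighbouring positions in PBMC 1 and 4651 in PBMC 2 were 1 nucleotide apart, against a mean of 488 and 477 at each distance from 11 to 20 nucleotides. That is 11.5 and 9.74 times as many, and the same ratio ran from 8.32 in bone marrow 2 to 49.3 in liver 1 among the other libraries. On opposite strands, the number of neighbours peaked at 4 nucleotides in all 12 libraries, with 716 in PBMC 1 and 669 in PBMC 2.

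The peak at 4 nucleotides lay in 1 of the 2 possible orders. Where the minus-strand position came first along the chromosome, 491 and 458 neighbours were 4 nucleotides apart in PBMC 1 and PBMC 2, against means of 184 and 175 at 11 to 20 nucleotides. Where the plus-strand position came first, 225 and 211 were, against 228 and 212. In the first order the base pair 2 nucleotides to the 5′ side is the same for both AP positions. Both strands were hit at the same coordinate in 184 and 158 cases.

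**Figure D2:**
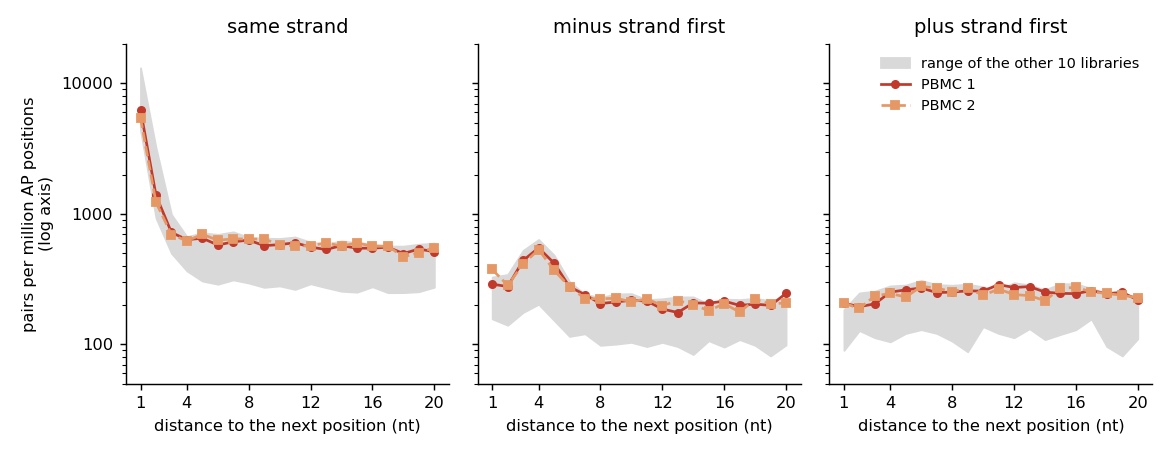
Neighbouring AP positions per 1e6 AP positions of a library (y axis, log scale) by their distance in nucleotides (x axis), on the same strand (left), or on opposite strands with the minus-strand (middle) or plus-strand position (right) first along the chromosome. Points are PBMC 1 and PBMC 2 and the band is the range of the other 10 libraries; the PBMC curves peak at 1 nucleotide on the left and at 4 nucleotides in the middle panel, and show no such peak on the right.

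Relative to genes, PBMC AP positions were placed as in the other tissues. Gene spans held 61.4% of the autosomal positions of PBMC 1 and 61.8% of those of PBMC 2, while they cover 49.4% of the covered autosomes. In the other 10 libraries the share was 59.9% to 62.6%. The 100 kb windows with the most genes (at least 4 gene spans, 24.1% of the sequence) held 29.3% and 29.8% of the PBMC positions, and windows without a gene (15.0% of the sequence) held 8.81% and 8.51%. AP positions of PBMCs were therefore denser in genes and sparser in gene-free DNA than an even spread would give, and so were those of the other tissues, at 27.4% to 31.4% and 7.94% to 9.91%.

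Within genes of either orientation, 50.6% and 50.4% of the PBMC positions lay on the strand of the gene, against 49.0% to 51.0% elsewhere. The 5 Mb of each autosome next to the centromere held 3.55% and 3.53% and the 5 Mb at the far end 4.80% and 4.88%, where each makes up 3.95% of the sequence. Of all 10 shares that were compared, including those within 1 kb of gene ends, those with a near neighbour and those with a count above 1, the PBMC values overlapped those of the other libraries in all 10. The exact permutation p-values ran from 0.470 for positions with a neighbour within 10 nucleotides (3.52% ± 0.121, SD, n = 2, against 3.24% ± 0.533, SD, n = 10) to 0.985 for gene spans. Liver 1 was the lowest or highest of the other libraries in most of these shares. Each of the 19 autosomes also received an overlapping share, for example 7.54% and 7.46% for chromosome 1 against 7.32% to 7.70%.

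**Figure D3:**
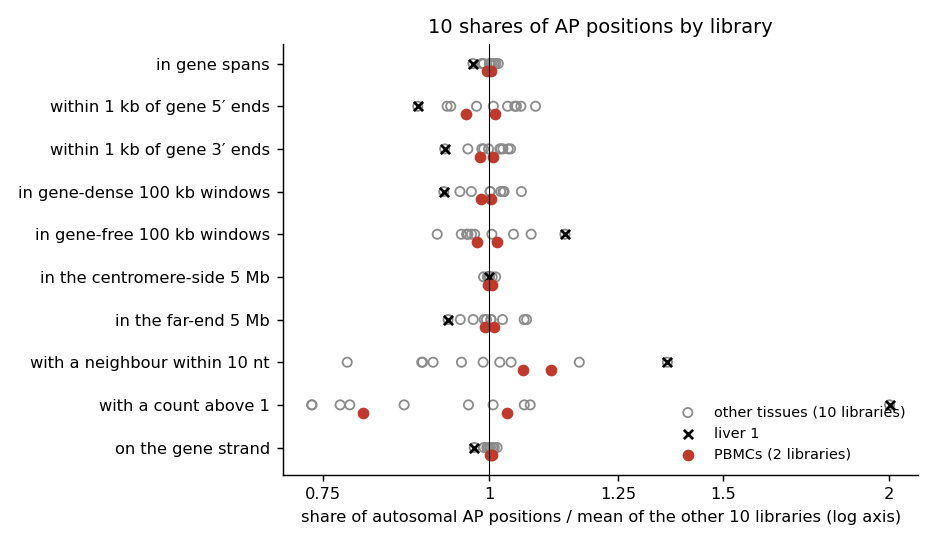
The 10 shares of autosomal AP positions (y axis) in each library, divided by the mean of the other 10 libraries (x axis, log scale). Filled points are the 2 PBMC libraries, open points the 10 libraries of other tissues, and the cross marks liver 1; the PBMC points lie among the others in every row.

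AP density changed at both ends of genes in PBMCs. Counted over 25748 genes with a known strand, the first 250 bases inside the 5′ end held 832 AP positions per Mb of sequence in PBMC 1 and 918 in PBMC 2, scaled to 1e6 autosomal positions. At 20 to 50 kb outside that end there were 492 and 501. The rise lay on both sides of the start, with 777 and 820 in the 250 bases before the start, and most of it had gone at 2 to 5 kb outside, where 492 and 492 were found.

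The 3′ end had a different shape. Density inside the gene rose towards the end, to 767 and 789 at 500 to 1000 bases and 766 and 801 at 250 to 500 bases from it, then dropped to 592 and 601 in the last 250 bases. Just outside it was 550 and 555. All PBMC values of these profiles lay within the range of the other 10 libraries, which was 738 to 989 for the first 250 bases inside the 5′ end and 589 to 640 for the last 250 bases. The share of positions within 1 kb of 5′ ends was 3.39% ± 0.118 (SD, n = 2) in PBMCs and 3.44% ± 0.226 (SD, n = 10) elsewhere (exact permutation p = 0.758), and within 1 kb of 3′ ends 3.19% ± 0.0535 and 3.20% ± 0.112 (exact permutation p = 0.879).

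**Figure D4:**
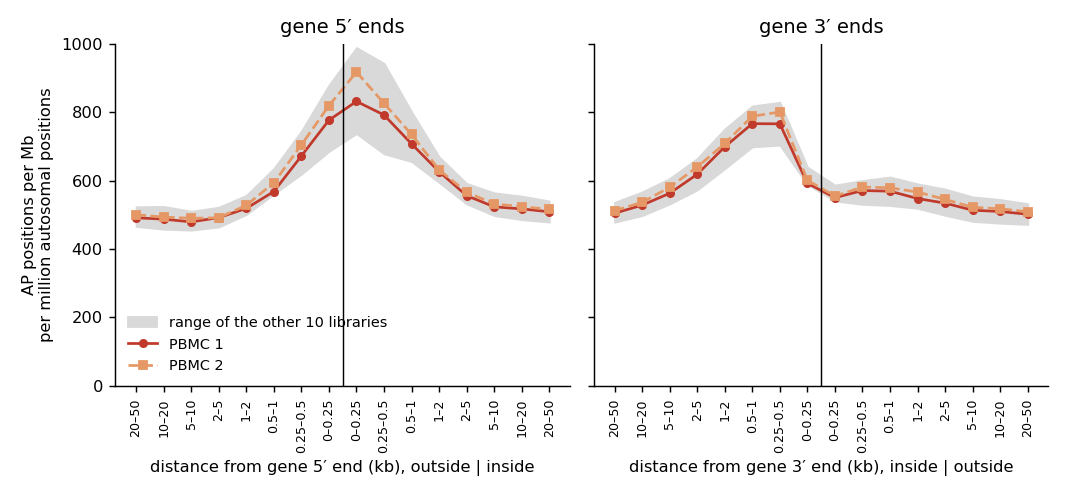
AP positions per Mb of sequence per 1e6 autosomal positions (y axis) by distance in kb from gene 5′ ends (left) and 3′ ends (right), with the gene body to the right of the line in the left panel and to its left in the right panel. Points are PBMC 1 and PBMC 2 and the band is the range of the other 10 libraries; density peaks on both sides of the 5′ end and falls in the last 250 bases before the 3′ end.

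The base composition of a promoter went with its AP density. Promoters were split into 5 classes of similar size by their content of guanine and cytosine, and in the lowest (median 40.0%) LPKM-AP was 0.547 and 0.537 in PBMC 1 and PBMC 2. It was 1.12 and 1.14 in the middle class (median 53.0%) and 0.602 and 0.720 in the highest (median 70.0%). The order rose and fell again, and the PBMC values overlapped those of the other tissues in each of these classes. The purine share at the AP position was 75.7% and 78.3% in the lowest class and 74.7% and 72.7% in the highest.

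Long genes were hit less per kb than short ones. Protein-coding genes up to 10 kb long had an LPKM-AP of 0.794 and 0.838 in PBMC 1 and PBMC 2, those of 10 to 50 kb 0.599 and 0.610, and those over 500 kb 0.423 and 0.421. Each class overlapped the other tissues. Pseudogenes were the one of 12 classes of genes, by length or kind, whose PBMC density did not overlap, with 0.527 and 0.536 against 0.481 to 0.520. The excess, 1.05 times the mean of the other libraries, gave p = 0.0606 in the exact permutation test, which did not pass the threshold. It did not pass after adjustment over the 12 classes either, but with a smallest possible p of 0.0152 a single class could not. The excess was still 1.05 times without the pseudogenes in the 5 windows of highest density.

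Transfer RNA genes were a gap in the profile. Their 386 annotated autosomal genes, 28.8 kb in total, held 0 AP positions in both PBMC libraries, which allows at most 3 each, or an LPKM-AP of up to 0.116 and 0.121 by counting error alone. At the mean density of genes 13.5 and 13.0 positions would lie there. The other 10 libraries held 2 positions in all. MicroRNA and small nucleolar RNA genes, which are also short, showed no such gap, with 0.621 and 0.982 and with 0.903 and 0.761. How reads from repeated sequence were placed is not given in the sources used here, and its part in the gap was not tested.

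Per gene, no difference between PBMCs and the other tissues passed the test. In the edgeR quasi-likelihood fit 0 of 39732 genes reached an adjusted p of 0.05 (0% higher and 0% lower), at an adjusted p of at least 0.9999. At an unadjusted p under 0.05 there were 1226 higher (3.09%) and 373 lower (0.939%), 4.02% in all. The median log2 fold change over all genes tested was 0.09. Both depended on depth and low counts. Thinned to equal depth, 966 were higher and 448 lower, with a median of 0.07. With a position required in 80% of libraries the median was 0.04. Gene spans together held a mean of 61.6% of the positions in PBMCs and in the other libraries, so more higher than lower genes did not mean more positions in genes. DESeq2 also called 0, with 39 and 46 at an unadjusted p under 0.05. Both PBMC libraries lay above all 10 others in 1.27% of the genes and below them in 0.644%, so 1.91% did not overlap. Most genes hold few positions, with a median of 3 in each PBMC library, and single genes are measured with a wide counting error at this depth. In the 5385 genes with a mean of at least 20 positions the log2 fold changes ran from -0.73 to 0.73, with a median of 0.03, and 98.98% of them were within 0.5 of 0. Of these, 3.08% were higher and 1.02% lower at an unadjusted p under 0.05, and both PBMC libraries were below all others in 0.65%.

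**Figure D5:**
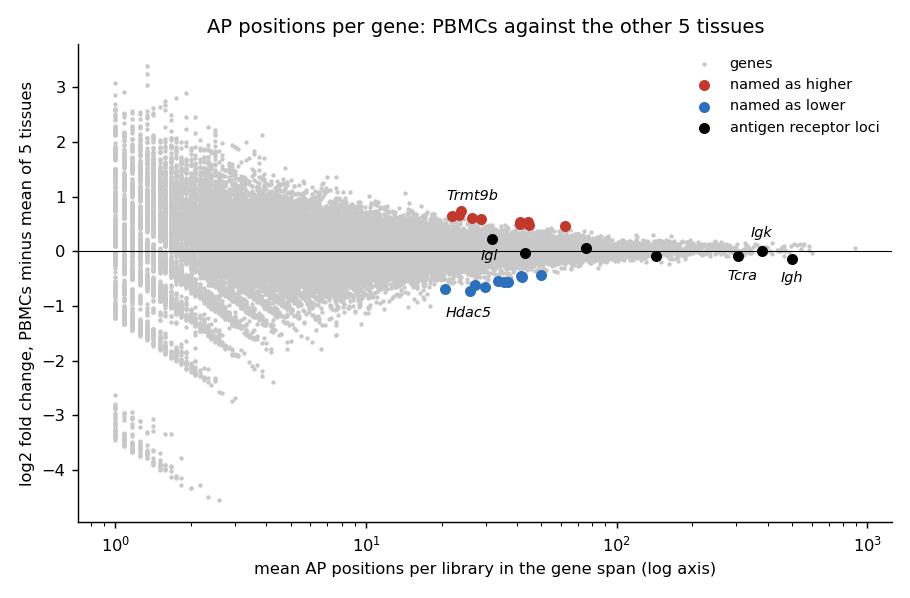
Log2 fold change of AP positions, PBMCs minus the mean of the other 5 tissues (y axis), against the mean number of AP positions per library (x axis, log scale) for genes with a mean of at least 1. Red and blue points are the genes named for the smallest unadjusted p in each direction and black points the antigen receptor loci; the cloud narrows to the right and no gene passed the adjusted test.

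The genes of smallest unadjusted p are given with their values as the far ends of this distribution. Trmt9b (chr8:36457485-36514584), of a tRNA methyltransferase family, had an LPKM-AP of 0.862 in PBMC 1 and 0.816 in PBMC 2, against 0.284 to 0.734 with a median of 0.524 in the other 10 libraries. Its log2 fold change was 0.73 (SE 0.20), with an edgeR adjusted p of 0.9999. Both PBMC values were above all others, which holds for 1.08% of the genes with a mean of at least 20 positions.

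Itga4 (chr2:79255426-79333114), the alpha 4 integrin subunit through which lymphocytes and monocytes enter tissues, had 0.619 and 0.660 in PBMCs and 0.294 to 0.603 elsewhere, again without overlap. Nod2 (chr8:88647315-88688474), a sensor of bacterial cell wall fragments in monocytes, had 0.897 and 1.30 against 0.458 to 0.903, and the lower PBMC value lay inside the range of the others. Antxr2 (chr5:97884688-98031017), a receptor for anthrax toxin, had 0.497 and 0.510 against 0.234 to 0.482. Bzw2 had 0.740 and 0.914 against 0.454 to 0.646, and the noncoding RNA gene Gm12153 0.630 and 0.603 against 0.396 to 0.596. The log2 fold changes of these genes were 0.45 to 0.67. For Arhgef17, a guanine nucleotide exchange factor, Sptbn5, a spectrin, and the noncoding RNA genes Gm51929 and Gm32849 the PBMC values overlapped those of other libraries.

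At the low end stood Hdac5 (chr11:102195747-102230172), a class IIa histone deacetylase, with 0.650 and 0.677 in PBMCs and 0.487 to 1.54 elsewhere, a log2 fold change of -0.73 (SE 0.24). Its PBMC values overlapped the range of the others. Arid1a (chr4:133679008-133756769), a subunit of the SWI/SNF chromatin remodelling complex, had 0.547 and 0.375 against 0.570 to 0.888 and so lay below all others, as did Ttc6, Gulp1 and Ankrd55. Gulp1, an adaptor for the engulfment of dying cells, had 0.169 and 0.190 against 0.206 to 0.316. Lrch3, Cdh10 (a cadherin), Gm15083, Muc2 (a gel-forming mucin) and Slc38a4 (an amino acid transporter) overlapped. None of these genes had an adjusted p below 0.9999.

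The antigen receptor loci showed no separation between PBMCs and the other tissues, bone marrow among them. Summed over the 7 annotated loci, LPKM-AP was 0.219 and 0.2094 in PBMCs against 0.2086 to 0.248, with a median of 0.230, in the other libraries. Igh (chr12:113258768-116009954), the immunoglobulin heavy chain locus, held 593 AP positions in PBMC 1 and 505 in PBMC 2, an LPKM-AP of 0.241 and 0.214. The other libraries had 0.233 to 0.277, so PBMC 2 fell below them and PBMC 1 did not. Igk, the kappa light chain locus, had 0.166 and 0.161 against 0.151 to 0.191. Igl, the lambda locus, had 0.253 and 0.159 against 0.123 to 0.212.

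The T cell receptor loci behaved likewise. Tcra (chr14:52427967-54224198) had 0.214 and 0.221 in PBMCs against 0.210 to 0.271, and Tcrb (chr6:40891296-41558371) 0.284 and 0.274 against 0.274 to 0.346. Tcrg had 0.263 and 0.385 against 0.297 to 0.387. Tcrd, which lies within Tcra, had 0.494 and 0.492 against 0.399 to 0.635. All 7 annotated loci overlapped the other tissues, 0 of 7 passed the edgeR test and 0 had an unadjusted p under 0.05.

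Inside the loci, density differed by the kind of gene segment. The stretch of D, J and C segments, which rearrangement brings next to a V segment, had 0.567 and 0.465 in Igh against 0.207 and 0.189 in the V stretch. In Tcra it was 0.829 and 0.758 against 0.164 and 0.176, and in Tcrb 0.896 and 0.700, from 12 and 9 positions, against 0.289 and 0.265. The other tissues had the same order, with 0.494 to 0.686 and 0.192 to 0.249 in the 2 stretches of Igh. PBMC values overlapped theirs in each stretch.

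Gene groups of blood cells were described by their summed density and by the median log2 fold change of their members. That median was 0.09 over all genes tested and 0.03 over genes with a mean of at least 20 positions. The 20 leukocyte-wide genes had 0.634 and 0.628 in PBMCs against 0.578 to 0.633 in the other libraries, with a median log2 fold change of 0.06. In this group Elmo1, which acts in cell migration and engulfment, had 0.752 and 0.578 (others 0.564 to 0.734), Dock2, which drives lymphocyte migration, 0.609 and 0.606 (others 0.504 to 0.639), and Arhgap15 0.446 and 0.464 (others 0.384 to 0.498). The 19 B cell genes had 0.677 and 0.683 against 0.651 to 0.695, with a median of 0.04. Among them Foxp1 had 0.747 and 0.753 (others 0.663 to 0.840), Aff3 0.802 and 0.776 (others 0.683 to 0.820) and Ebf1, a transcription factor that specifies B cells, 0.709 and 0.780 (others 0.638 to 0.766).

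The 24 T cell genes had 0.558 and 0.617 against 0.576 to 0.646, with a median log2 fold change of -0.01. The kinase gene Camk4 had 0.373 and 0.433 (others 0.271 to 0.513), and the transcription factor genes Ets1 and Lef1 0.718 and 0.853 (others 0.690 to 1.01) and 0.785 and 0.817 (others 0.575 to 1.07). The 20 monocyte and NK genes had 0.651 and 0.687 against 0.574 to 0.778, with a median of 0.16. Csf1r, the receptor for macrophage growth factor, had 1.05 and 1.18 (others 0.574 to 1.27), Spi1, a myeloid transcription factor, 0.804 and 0.663 (others 0.440 to 0.935), and Itgam, an integrin of myeloid cells, 0.301 and 0.334 (others 0.211 to 0.396). Each of these 4 groups overlapped the other tissues, and 0 of their genes passed the edgeR test. Runx3, a leukocyte-wide transcription factor, was the 1 gene in them with an unadjusted p under 0.05, beside 4.02% of all genes, and its adjusted p was 0.9999. It had 0.898 and 1.24 against 0.402 to 1.32.

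Groups of other blood cells and of the other organs were described in the same way, and 0 of their genes passed the edgeR test. The 15 granulocyte genes had 0.670 and 0.897 (others 0.574 to 1.002), with a median log2 fold change of -0.02. Ltf, which encodes lactoferrin, had 0.572 and 1.04 (others 0.396 to 0.736), Mmp9, a secreted protease, 1.08 and 0.825 (others 0.553 to 1.04), and Csf3r, a growth factor receptor, 0.260 and 0.757 (others 0.195 to 0.837). Camp, an antimicrobial peptide gene, lay above all other libraries on 3 positions in each PBMC library. The 14 erythroid and platelet genes had 0.801 and 0.837 (others 0.663 to 0.903), with a median of -0.01 over the 13 that were tested. Ank1, of the red cell skeleton, had 0.860 and 0.862 (others 0.691 to 1.04), Itgb3, a platelet integrin, 0.555 and 0.671 (others 0.552 to 0.923), and Slc4a1, the red cell anion exchanger, 0.952 and 1.27 (others 0.697 to 1.87). Epor, the erythropoietin receptor, had 6 and 9 positions and an unadjusted p under 0.05, with an adjusted p of 0.9999.

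The 16 hepatocyte genes had 0.612 and 0.626 (others 0.570 to 0.719), with a median log2 fold change of 0.06. Cps1, of the urea cycle, had 0.483 and 0.514 (others 0.289 to 0.655), Hnf4a 0.897 and 0.617 (others 0.571 to 0.802) and Apob 0.970 and 0.743 (others 0.460 to 1.41), while G6pc, of glucose release, lay below all other libraries on 3 positions in each PBMC library. The 16 cardiac muscle genes had 0.728 and 0.805 (others 0.671 to 0.818), with a median of 0.07. Cacna1c had 0.842 and 0.894 (others 0.690 to 0.968), Ryr2 0.493 and 0.549 (others 0.469 to 0.539) and Ttn 0.912 and 1.05 (others 0.783 to 1.10). Nppa, an atrial hormone gene, held 0 positions in both PBMC libraries and 0 in at least 1 of the others, with an unadjusted p under 0.05 and an adjusted p of 0.9999.

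The 16 neuron genes had 0.409 and 0.411 (others 0.391 to 0.451), with a median log2 fold change of -0.003. Nrxn3 had 0.505 and 0.501 (others 0.432 to 0.515), Dlg2 0.332 and 0.298 (others 0.278 to 0.372) and Cntnap2 0.270 and 0.284 (others 0.252 to 0.337). Grin1, an NMDA receptor subunit, was the 1 neuron gene above all others, with 0.9988 and 0.9982 against 0.299 to 0.965 and an adjusted p of 0.9999. The 16 spermatogenesis genes were the 1 group of those described whose summed density lay below all other libraries. It was 0.296 and 0.303 against 0.318 to 0.395, with a median log2 fold change of -0.03. Summed densities were not tested, and 1 such case among several groups is not read as a trait of PBMCs. Spata16 had 0.308 and 0.300 (others 0.275 to 0.424), Ddx4 0.289 and 0.472 (others 0.163 to 0.395) and Stra8 0.642 and 0.790 (others 0.376 to 1.10). Odf2, of the sperm tail and the centrosome, had 0.340 and 0.273 against 0.384 to 0.962, with 13 and 10 positions and an edgeR adjusted p of 0.9999. Of all genes tested, 1.27% lay above all other libraries and 0.644% below them. These shares are of single genes and give no measure for summed groups.

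Of the genes that act on AP sites or make them, 24 base excision repair genes had a summed LPKM-AP of 0.667 and 0.697 in PBMCs against 0.551 to 0.736, with a median log2 fold change of 0.06. The 8 genes of cytosine deamination and oxidation had 0.613 and 0.621 against 0.522 to 0.668, with a median of 0.08. The PBMC values lay inside the range of the other tissues for both groups. Parp1, which senses strand breaks, had 1.43 and 0.907 (others 0.826 to 1.40), Neil3, a glycosylase, 0.472 and 0.536 (others 0.253 to 0.712), and Lig1, a DNA ligase, 0.719 and 0.714 (others 0.367 to 0.891). Smug1, a glycosylase that removes uracil from DNA, was the 1 repair gene above all others, beside 1.27% of all genes, with 1.001 and 1.12 against 0.315 to 0.877. It held 14 and 15 positions, and its log2 fold change was 0.87 (SE 0.35), with an adjusted edgeR p of 0.9999. Tet3, Tet1 and Tet2, which oxidise 5-methylcytosine, had 0.814 and 0.749 (others 0.641 to 0.874), 0.540 and 0.646 (others 0.414 to 0.799) and 0.385 and 0.443 (others 0.206 to 0.531).

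The densest genes of the PBMC genome had overlapping densities in the other tissues. Sfi1 (chr11:3131850-3203347), which encodes a centrosome protein, held 1121 AP positions in PBMC 1 and 1079 in PBMC 2, an LPKM-AP of 17.5 and 17.6 against 14.5 to 19.8 in the other libraries. The pseudogenes Gm11400, inside its span, and Pisd-ps1, beside it, had 52.3 and 46.1 and 21.1 and 18.04. Duxf3 and LOC100504180 on chromosome 10 had 9.99 and 13.3 and 11.1 and 11.9, and on chromosome 1 Ugt1a1, which glucuronidates bilirubin, had 5.84 and 6.23, beside its neighbours Mroh2a and Hjurp. C130026I21Rik, also on chromosome 1, had 4.82 and 4.37. Several of these genes have near-identical copies in the mouse genome, and how reads were shared between copies is not given, so their densities are uncertain.

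Against bone marrow, the nearest tissue by cell content, Sfi1 stood apart. Its LPKM-AP was 14.5 in both bone marrow libraries and 17.5 and 17.6 in PBMCs, with no overlap, and 15.9 to 19.8 in the other 8 libraries. Against bone marrow alone it had a log2 fold change of 0.34 and an adjusted edgeR p of 0.00108. It was the 1 gene of those tested that was called in that comparison. Red cell lysis, the separation method and the tissue itself cannot be told apart here.

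Windows of 100 kb gave the same answer as genes. A window held a median of 36 positions in PBMC 1 and 34 in PBMC 2, and the 1st and 99th percentiles were 4 and 86 in both. In the edgeR fit 0 of 23972 windows were called (0% higher and 0% lower), while 516 higher (2.15%) and 430 lower (1.79%) had an unadjusted p under 0.05. DESeq2 called 0, with 42 and 48. Both PBMC libraries lay above all others in 1.02% of the windows and below them in 0.947%.

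The window with the smallest p among those higher in PBMCs was chr11:40200001-40300000, which holds the noncoding RNA gene Gm12132. It had 36.9 and 32.6 positions per 1e6 against 9.01 to 23.4, with 9.01 and 9.68 in bone marrow, a log2 fold change of 1.05 (SE 0.25) and an edgeR adjusted p of 0.888. Against bone marrow alone it was called, with a log2 fold change of 1.86 and an adjusted p of 0.0157. Next came chr7:128800001-128900000, with 45.9 and 41.9 against 16.9 to 37.8, then the window of Kcna1, a potassium channel, with 81.7 and 87.4 against 38.6 to 65.0, that of Naip6, a sensor of bacterial proteins, with 36.9 and 31.5 against 6.29 to 29.5, and that of Antxr2 with 52.6 and 52.4 against 18.6 to 44.1. The window with the smallest p among those lower in PBMCs was chr3:46800001-46900000, which holds no protein-coding or long noncoding gene. It had 3 positions in each PBMC library, or 3.36 and 3.495 per 1e6 against 5.41 to 26.2. A window on chromosome 14 with Usp54, Myoz1, Synpo2l, Sec24c and Fut11 had 31.3 and 32.6 against 40.0 to 72.1. The windows starting at 57000001 on chromosome 18 and at 75700001 on chromosome 1 had 22.4 and 29.1 against 37.6 to 62.9 and 30.2 and 37.3 against 41.2 to 67.7. The one starting at 64400001 on chromosome 2 had 26.9 and 15.1 against 21.6 to 46.1. The 5 windows named as higher lay above all other libraries, and 4 of the 5 named as lower lay below them, while that on chromosome 2 overlapped.

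The order of windows was shared between tissues. After thinning to equal depth, the Spearman correlation over 23972 windows was 0.844 between the PBMC libraries and 0.792 to 0.854 between a PBMC library and one of another tissue, with liver 1 the lowest. The PBMC libraries were thus no more like each other than like other tissues by this measure. The windows share their gene content across libraries, and these correlations are given as a description. The 5 densest PBMC windows were those of Sfi1, the Ugt1a cluster, AY036118 on chromosome 17, and a pair on chromosome 1 near Gm38510. The window of AY036118, an annotation made of ribosomal RNA sequence, was the other one called against bone marrow alone. It had 261 and 254 positions per 1e6 in PBMCs and 497 and 311 in bone marrow, with a log2 fold change of -0.61. The adjusted edgeR p was 1.97e-05, which rests on a spread moderated across windows and does not measure that of this window alone. The 2 bone marrow libraries differed widely from each other. Bone marrow 2 lay below the median of the 10 libraries outside PBMCs, 331, and those 10 ranged from 191 to 497.

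Single nucleotides were rarely hit in both PBMC libraries. The same nucleotide on the same strand was found in both 3273 times, 0.366% of the positions of PBMC 1 and 0.381% of those of PBMC 2. Between a PBMC library and one of another tissue, 1349 to 3752 nucleotides were shared. Scaled by the product of the numbers of positions, the PBMC pair shared 4.27 per 1e9 pairs of positions and a PBMC library with another tissue 3.28 to 4.52, with a mean of 4.02. The value of the PBMC pair was 1.06 times that mean and below 7 of the 20 mixed pairs. The 2 libraries of the other tissues shared 3.17 (liver) to 4.51 (heart).

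Most shared nucleotides were scattered. Of the 3273, 2558 were alone in their 100 kb window, and 2873 (87.8%) were found in none of the other 10 libraries. The matching share of other pairs of libraries is not given here, so 87.8% is not read as particular to PBMCs. A further 235 were in exactly 1 other library, 44 in at least 5 and 10 in all 10. Gene spans held 62.0% of the shared nucleotides, close to the share of all positions. A count above 1 was more frequent among them than among all positions, at 3.09% in PBMC 1 and 1.96% in PBMC 2 against 0.480% and 0.374%.

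The remainder was concentrated. The window of Sfi1 held 128 of the 3273, the ribosomal RNA window of AY036118 37 and chr15:75000001-75100000, with Ly6c1, 27, together 5.87% of them. By gene, Sfi1 held 120, Gm38510 and Gm11400 9 each, Pisd-ps1 8, Kctd16 7, and Camta1, Atp8a2 and Sp140 6 each, while Asic2 and Rbfox1 held 5. Kctd16, an auxiliary subunit of GABA-B receptors, is not among the densest genes, with 0.477 and 0.472. Its 7 shared nucleotides came from 124 and 118 positions.

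The 10 nucleotides found in all 12 libraries lay at few places. Those at chr7:104428093-104428096 are consecutive, on the plus strand and inside Trim30a, an interferon-induced gene, with deposited counts of 3 to 16 in the PBMC libraries. On chromosome 10, positions 72297175 to 72297177 on the minus strand, outside annotated genes, had the highest counts of both PBMC libraries, 32 in PBMC 1 and 26 in PBMC 2. The others were a nucleotide on chromosome 14 and a pair in the chromosome 15 window. These places were hit in both libraries of every tissue.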

How the data were processed

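SSiNGLe-AP libraries of 6 tissues from 2 male C57BL/6J mice aged 24 months were analysed, 12 in all; break libraries and RNA data were not used here. The deposited files list single nucleotides on GRCm38 (mm10) with a strand and the authors' count in column 4; each listed nucleotide was used once. Aligner and filters are not given in the sources used here. Replicates are animals. The edgeR p-values rest on the spread between 2 animals within each tissue, pooled over the tissues compared and moderated across features. The exact permutation p-values rest on the spread over all 12 libraries, tissues included. They treat these libraries as exchangeable, though they come from 6 tissues of 2 animals and are not independent. Depth was 452686 to 946961 autosomal positions; intervals and limits cover counting error only.

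Positions were counted in 46714 autosomal RefSeq gene spans (overlapping genes each count) and in 24046 windows of 100 kb. The study computes its density over exons and also over entire genes, and entire spans were used here. edgeR 4.0.16 quasi-likelihood tests (R 4.3.3, TMM, 6 tissue groups, PBMC minus the mean of the other 5, features with a position in at least 20% of libraries, Benjamini-Hochberg, threshold 0.05) were the main test, with DESeq2 1.42.0 and limma 3.58.1 as alternatives. Shares were compared by exact two-sided permutation over 66 splits (Python 3.11.15). The fits were tested on simulated data. Genes without a strand in the promoter table were left out of measures that need one.

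Named are the 10 higher and 10 lower genes of smallest unadjusted p with a mean of at least 20 positions, the 10 densest PBMC genes with at least 20 positions in each PBMC library, all antigen receptor loci, 3 members of each other list, the 10 genes with most shared nucleotides, 5 higher and 5 lower windows and the 5 densest; the list members of small unadjusted p, Trim30a and Sfi1 against bone marrow were picked after their values were seen. The tissue, the lists and these rules were chosen with earlier results of these data known.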

Additional observations from a re-analysis of the deposited data

How the results depend on the processing

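The count of genes called, 0, stayed 0 under another normalization, DESeq2, other filters, thinning, summed counts, the replicate block, each library left out, and without sperm or bone marrow. Against bone marrow alone 1 gene and 2 windows were called. limma on log2(LPKM + 1) called 17 genes, 14 higher and 3 lower, none with more than 5 positions in any library and none longer than 2017 bp. Most were pseudogenes. Among the 17 were the V segments Igkv10-96 and Igkv4-53 and the V segment pseudogene Trbv22, with 1 or 2 positions in each PBMC library. Outside PBMCs, the positions of Igkv10-96 and Igkv4-53 all lay in bone marrow. Their LPKM-AP in bone marrow 1 and 2 was 3.87 and 2.31 for Igkv10-96 and 3.39 and 4.05 for Igkv4-53. These values rest on 2 positions for Igkv10-96 and 3 for Igkv4-53. The long noncoding RNA gene Gm41576, also among the 17, had the same pattern, with 3.34 and 1.996. Trbv22 had 0 in both bone marrow libraries. Windows stayed at 0 called at 10 kb and 1 Mb and in all other fits. Thinned to equal depth, 889 nucleotides were shared by both PBMC libraries. Of the 10 share differences, PBMCs minus others in percentage points, 8 changed sign in some of the alternatives and none reached an exact permutation p under 0.164. Leaving out each library gave -0.23 to 0.19 for gene spans, -0.13 to 0.032 for 5′ ends, -0.053 to 0.023 for 3′ ends, -0.41 to 0.10 for gene-dense windows, -0.18 to 0.12 for gene-free windows, -0.0097 to 0.014 for the centromere side, -0.037 to 0.044 for the far end and -0.091 to 0.014 for counts above 1. Without bone marrow the differences were 0.169 for gene spans, 0.0060 for 5′ ends, 0.0096 for 3′ ends and 0.150 for gene-dense windows; without sperm they were 0.0017 for gene-free windows and -0.012 for the far end. The cause of these changes was not tested. The purine share stayed higher in PBMCs by 1.46 to 2.09 percentage points with each library left out. Whether a replicate number is the same animal in every tissue is not given, and the numbers were not taken as pairs. Same-numbered libraries of PBMCs and another tissue did not deviate together over windows (r from -0.046 to 0.054). With a median of 36 and 34 positions per window in the PBMC libraries, counting error keeps r from showing whether libraries share an animal. With the replicate block 0 genes and 0 windows were called and the purine difference was 1.80. Depth limits the tests of single genes, most of which held few positions.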
